A study of Homo sapiens with 40 samples.

Results

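ATL3, ABI2, ZNF271P and CLIP4 are 4 genes whose RNA fell more with the type I arginine methyltransferase inhibitor GSK3368712 in lung adenocarcinoma cell lines than in lung squamous cell carcinoma lines. They were chosen by their deposited fold changes for that difference, and their closest relatives with values, ATL2 and ABI1, were set beside them by family and not by value. These 6 genes are among 19280 with values in at least 1 line, and each of the 6 had values in all 10 lines. Fold changes chose the 4 genes, so their difference between the groups of lines is described here without a test.

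The study sequenced RNA from 40 libraries of 10 established human non-small cell lung cancer lines, with 2 libraries per line treated with GSK3368712 and 2 given the vehicle dimethyl sulfoxide (DMSO). The row labels of the authors' deposited table assign NCIH1563, NCIH1975, NCIH522 and PC9 to lung adenocarcinoma (LUAD), and EBC1, LK2, NCIH226, NCIH520, SKMES1 and SW900 to lung squamous cell carcinoma (LUSC). Each value compares the compound with DMSO within 1 line. The row labels name the compound before DMSO, so a negative log2 fold change is taken to mean a lower level with GSK3368712. The labels leave unsaid if the paired libraries stem from cultures grown apart, so the authors' p-values may measure technical spread only.

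The lineage markers did not separate the lines by their labels. Of 6 adenocarcinoma markers, 1 to 4 had values in each LUAD line and 1 to 5 in each LUSC line. Their summed level spanned 4.62 to 4662 CPM (the authors' mean normalized counts, scaled to the sum of the line) in LUAD lines and 8.60 to 5193 in LUSC lines. The keratin gene KRT7 had values in every line. It was the only adenocarcinoma marker with values in NCIH1563, NCIH522, PC9 and NCIH226, so the sum there is KRT7 alone. Of 6 squamous markers, 0 to 3 had values in each LUAD line and 1 to 3 in each LUSC line, with summed levels of 0 to 240 CPM in LUAD lines and 2.20 to 328 in LUSC lines. DSG3, a desmosomal cadherin of squamous epithelium, and KRT14, a basal keratin, had values in none of the lines. LUAD and LUSC are therefore used below as the names that the row labels give.

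Type I arginine methyltransferases place asymmetric dimethyl marks on arginines of histones and of many RNA-binding proteins, and GSK3368712 blocks them. Atlastins such as ATL3 and ATL2 are GTPases that fuse tubules of the endoplasmic reticulum into a branched network, and ATL3 also serves as a receptor that delivers tubular endoplasmic reticulum to autophagy. ABI2 and ABI1 are Abl interactors, adaptor subunits of the WAVE complex, which switches on the Arp2/3 complex to build branched actin. CLIP4 belongs to the CAP-Gly family of microtubule-binding linker proteins, and ZNF271P is a transcribed pseudogene of a zinc finger protein gene.

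The genes lie at separate loci, given here as annotated by GENCODE 29 on GRCh38. ATL3 (ENSG00000184743) is on the minus strand of chromosome 11 from 63624087 to 63671921, and ATL2 (ENSG00000119787) on the minus strand of chromosome 2 from 38294880 to 38377285. ABI2 (ENSG00000138443) is on the plus strand of chromosome 2 from 203328219 to 203447723, and ABI1 (ENSG00000136754) on the minus strand of chromosome 10 from 26746593 to 26861087. CLIP4 (ENSG00000115295) is on the plus strand of chromosome 2 from 29097705 to 29189643, and ZNF271P (ENSG00000257267) on the plus strand of chromosome 18 from 35290282 to 35328390.

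The stretches upstream of the starts of ABI2, ABI1, ATL2 and CLIP4 are shown so that the starts of chosen genes can be read beside those of their relatives. They come from RefSeq (GRCh38.p14) and are cut to the bases before the start that no GENCODE 29 exon covers, read 5′ to 3′ on the gene's strand. Where RefSeq gives several starts, the window with the most GENCODE starts is shown. Capitals mark matches to the motifs searched on both strands, which were GGGCGG for the GC box, CCAAT for the CCAAT box, CACGTG for the E-box, CCGGAAGT for the ETS motif, TGACGTCA for the CRE motif and the palindromic NRF1 motif, seen in capitals in ABI1.
ABI2 (chr2:203328144-203328218, plus strand): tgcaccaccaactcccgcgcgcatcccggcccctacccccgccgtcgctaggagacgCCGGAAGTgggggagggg
ABI1 (chr10:26861088-26861208, minus strand): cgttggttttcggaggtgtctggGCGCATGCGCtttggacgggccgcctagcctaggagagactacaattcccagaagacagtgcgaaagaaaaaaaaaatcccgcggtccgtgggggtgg
ATL2 (chr2:38377286-38377523, minus strand): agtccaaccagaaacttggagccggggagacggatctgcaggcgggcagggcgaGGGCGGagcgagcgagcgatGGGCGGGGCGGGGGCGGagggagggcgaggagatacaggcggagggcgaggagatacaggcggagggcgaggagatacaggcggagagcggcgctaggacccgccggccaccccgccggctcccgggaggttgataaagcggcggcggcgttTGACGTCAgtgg
CLIP4 (chr2:29097526-29097704, plus strand): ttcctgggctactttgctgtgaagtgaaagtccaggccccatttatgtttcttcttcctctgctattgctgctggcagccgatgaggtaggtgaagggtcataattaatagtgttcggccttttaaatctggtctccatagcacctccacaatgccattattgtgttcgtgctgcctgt

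No searched motif occurs in more than 1 of the printed stretches. ABI2 carries 1 ETS match, which 3.42% of the 35116 windows of 250 upstream bases in the table also hold, and ABI1 carries 1 NRF1 match, which 1.03% hold. ATL2 has 4 GC box matches, some of which overlap, and 1 CRE match, beside shares of 42.6% for the GC box and 1.65% for the CRE motif over all windows. Counted over the full 250 bases, ABI2 also has 2 GC box matches and ABI1 has 1, while the CCAAT box (32.0% of windows) and the E-box (6.34%) occur in none of the windows described for ATL3, ABI2, ABI1, ATL2 and CLIP4. The 250 bases before the RefSeq start of ATL3 lie in annotated exons and are not printed, and they hold 3 GC box matches and no other searched motif. These matches describe letters in a window and show no binding.

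ATL3 fell in every line and fell most in the LUAD lines. The authors' deposited table lists log2 fold changes of −1.72 in NCIH1563, −1.52 in NCIH1975, −1.21 in NCIH522 and −1.65 in PC9 among the LUAD lines. Among the LUSC lines the authors' deposited table lists −0.34 in EBC1, −0.61 in LK2, −0.23 in NCIH226, −0.56 in NCIH520, −0.32 in SKMES1 and −0.36 in SW900. The groups did not overlap: NCIH522, the LUAD line with the smallest fall, lay 0.60 below LK2, the LUSC line with the largest. In linear terms, ATL3 RNA stood at 30.3% to 43.3% of its DMSO level in the LUAD lines and at 65.5% to 85.4% in the LUSC lines. The mean of the deposited fold changes was −1.53 ± 0.23 in LUAD lines (SD, n = 4) and −0.40 ± 0.15 in LUSC lines (SD, n = 6), a difference of −1.12.

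Within a line, ATL3 was among the most strongly lowered genes in the LUAD lines. It held place 77 from the lowest of 12721 genes in PC9, place 142 of 12937 in NCIH522, place 188 of 12972 in NCIH1975 and place 420 of 13302 in NCIH1563. In the LUSC lines its place ranged from 825 in NCIH520 to 3389 in NCIH226. The DESeq2 adjusted p of the authors' deposited table ran from 1.37e-18 in NCIH1563 to 0.00108 in NCIH522 over the LUAD lines, and from 4.97e-07 in NCIH520 to 0.0353 in NCIH226 over the LUSC lines. By that adjusted p at 0.05, ATL3 was called lower in 4 of 4 LUAD and 6 of 6 LUSC lines. The share of all listed genes called lower was 24.8% in NCIH1563, 3.58% in NCIH1975, 0.75% in NCIH522 and 1.92% in PC9, and 23.4% in EBC1, 19.5% in LK2, 15.8% in NCIH226, 12.3% in NCIH520, 15.6% in SKMES1 and 17.7% in SW900.

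ABI2 also fell in every line, with the larger falls in the LUAD lines. The authors' deposited table gives −1.43 in NCIH1563, −1.21 in NCIH1975, −1.20 in NCIH522 and −1.71 in PC9. For the LUSC lines the authors' deposited table gives −0.59 in EBC1, −0.19 in LK2, −0.72 in NCIH226, −0.50 in NCIH520, −0.55 in SKMES1 and −0.49 in SW900. The LUSC lines were not uniform, since LK2 kept 87.8% of the DMSO level while NCIH226 kept 60.8%. PC9 kept 30.5%, the least of the 10 lines, and NCIH522 43.5%, the most of the LUAD lines. The mean was −1.39 ± 0.24 in LUAD lines (SD, n = 4) and −0.51 ± 0.18 in LUSC lines (SD, n = 6), a difference of −0.88 with 0.48 between the nearest lines of the groups.

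Counted from the lowest gene of a line, ABI2 held places from 66 in PC9 to 742 in NCIH1563 over the LUAD lines and from 878 in NCIH226 to 3701 in LK2 over the LUSC lines. Its DESeq2 adjusted p in the authors' deposited table ran from 1.63e-14 in NCIH1563 to 0.00091 in NCIH1975 over the LUAD lines and from 1.02e-09 in NCIH520 to 0.0346 in LK2 over the LUSC lines. ABI2 was thus called lower in 4 of 4 LUAD and 6 of 6 LUSC lines by the authors' adjusted p, beside the same shares of all genes as for ATL3. Of 9339 genes with values in all 10 lines, 8 (0.0857%) were called lower in every line, and ATL3 and ABI2 are among them. The authors also set a mark, found where the log2 fold change reached 1 in size and the adjusted p also passed 0.05, and ATL3 and ABI2 carried this mark in 4 of 4 LUAD lines and in 0 of 6 LUSC lines. Among all listed genes, a mark with a fall was set for 11.2% in NCIH1563, 2.53% in NCIH1975, 0.51% in NCIH522 and 1.49% in PC9, and for 2.61% in EBC1, 2.05% in LK2, 2.53% in NCIH226, 0.829% in NCIH520, 1.39% in SKMES1 and 1.43% in SW900. Among the 9339 genes, 2 (0.0214%) had every LUAD line at or below −1 and every LUSC line above every LUAD line, and these were ATL3 and ABI2. All of these counts come from the fold changes that chose the genes, and nothing further is read from them.

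**Figure D1:**
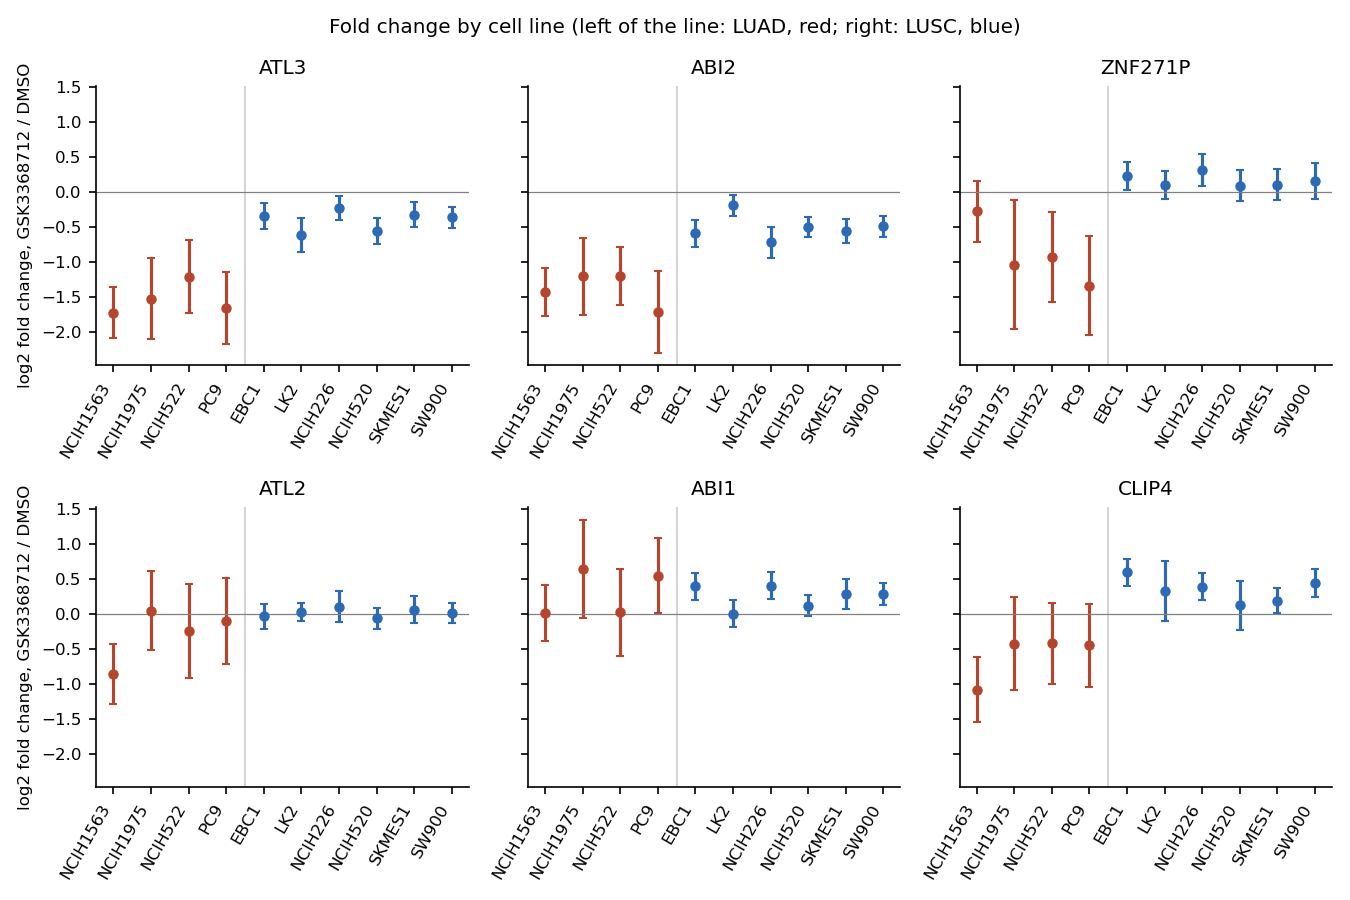
Log2 fold change of the 6 genes in each of 10 lines, with the 4 LUAD lines in red to the left of the grey line and the 6 LUSC lines in blue to its right. Points are the authors' deposited values and bars are 95% intervals from the deposited standard errors; ATL3 and ABI2 lie below 0 in every line, ZNF271P and CLIP4 lie below 0 in the LUAD lines and above 0 in the LUSC lines, and ATL2 and ABI1 overlap between the groups.

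ZNF271P had opposite signs in the groups. The authors' deposited table lists −0.27 in NCIH1563, −1.04 in NCIH1975, −0.92 in NCIH522 and −1.34 in PC9. In the LUSC lines the authors' deposited table lists 0.23 in EBC1, 0.11 in LK2, 0.32 in NCIH226, 0.089 in NCIH520, 0.11 in SKMES1 and 0.16 in SW900. The LUAD lines spread widely, from 82.8% of the DMSO level in NCIH1563 to 39.5% in PC9, while the LUSC lines stayed between 106% in NCIH520 and 125% in NCIH226. Few of these values passed the authors' threshold. ZNF271P was called lower in 1 of 4 LUAD lines, PC9 (DESeq2 adjusted p = 0.00984 in the authors' deposited table). It was called higher in 2 of 6 LUSC lines, EBC1 and NCIH226. The share of all listed genes called lower was 1.92% in PC9, and the share called higher was 23.0% in EBC1 and 15.5% in NCIH226. The mean was −0.89 ± 0.45 in LUAD lines (SD, n = 4) and 0.17 ± 0.09 in LUSC lines (SD, n = 6), a difference of −1.06.

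CLIP4 likewise was below 0 in each LUAD line and above 0 in each LUSC line. The authors' deposited table gives −1.08 in NCIH1563, −0.43 in NCIH1975, −0.42 in NCIH522 and −0.45 in PC9. For the LUSC lines the authors' deposited table gives 0.59 in EBC1, 0.32 in LK2, 0.39 in NCIH226, 0.12 in NCIH520, 0.19 in SKMES1 and 0.43 in SW900. NCIH1563 stood apart at 47.2% of the DMSO level, while the other LUAD lines held 73.1% to 74.5%. CLIP4 was called lower in 1 of 4 LUAD lines, NCIH1563 (DESeq2 adjusted p = 3.91e-05 in the authors' deposited table), and higher in 3 of 6 LUSC lines, EBC1, NCIH226 and SW900. The share of all genes called lower was 24.8% in NCIH1563. The share called higher was 23.0% in EBC1, 15.5% in NCIH226 and 18.0% in SW900. The mean was −0.60 ± 0.32 in LUAD lines (SD, n = 4) and 0.34 ± 0.17 in LUSC lines (SD, n = 6), a difference of −0.94.

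The error of a single line's value was larger in the LUAD lines. For the 6 genes the deposited standard errors were 0.175 to 0.471 in LUAD lines and 0.066 to 0.218 in LUSC lines, and the median over all listed genes was 0.216 to 0.342 in LUAD lines and 0.108 to 0.13 in LUSC lines. The 95% intervals of single lines could therefore overlap where the values did not. For ATL3 the highest bound of a LUAD line was −0.69 and the lowest bound of a LUSC line −0.86, and for ABI2 these bounds were −0.65 and −0.94. Means weighted by the standard errors were −1.57 in LUAD lines and −0.38 in LUSC lines for ATL3, and −1.37 and −0.47 for ABI2. The groups do not overlap in either gene, so weighting could not change this order, and only the sizes are informative. The errors of these means, 0.12 and 0.04 for ATL3 and 0.11 and 0.03 for ABI2 (SE), come from errors within lines only. They leave out the spread between lines.

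The paralog ATL2 was called lower in 1 of 10 lines, where ATL3 was called lower in each. In the authors' deposited table ATL2 stood at −0.87 in NCIH1563, 0.042 in NCIH1975, −0.25 in NCIH522 and −0.11 in PC9, and between −0.066 in NCIH520 and 0.10 in NCIH226 over the LUSC lines. NCIH1563 was the 1 line of 10 that called it lower (DESeq2 adjusted p = 0.000353 in the authors' deposited table). In that line 24.8% of all listed genes were called lower. The groups of ATL2 overlapped. The LUAD mean was −0.29 ± 0.40 (SD, n = 4) and the LUSC mean 0.02 ± 0.06 (SD, n = 6), a difference of −0.31 (limma SE 0.17) that did not pass the test over 9339 genes (limma adjusted p = 0.965). Over all lines ATL2 stood at −0.11 ± 0.28 (SD, n = 10; limma adjusted p = 0.42), below 0 in 5 of 10 lines. Without NCIH1563 the difference was −0.12 and the mean over lines −0.025, so both sizes rest largely on that line. Within each line ATL3 lay below ATL2. Fold changes chose ATL3 and did not choose ATL2, so this order follows in part from the choice. The fold change of ATL3 minus that of ATL2 was −0.86 in NCIH1563, −1.56 in NCIH1975, −0.96 in NCIH522 and −1.55 in PC9, and from −0.64 in LK2 to −0.30 in EBC1 over the LUSC lines.

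ABI1, the paralog of ABI2, rose on average where ABI2 fell. The authors' deposited table lists ABI1 at 0.007 in NCIH1563, 0.64 in NCIH1975, 0.019 in NCIH522 and 0.54 in PC9, and from −0.002 in LK2 to 0.40 in NCIH226 over the LUSC lines. By the authors' adjusted p it was called higher in 0 of 4 LUAD and 4 of 6 LUSC lines, which were EBC1, NCIH226, SKMES1 and SW900. The share of all listed genes called higher was 23.3% in NCIH1563, 4.33% in NCIH1975, 0.912% in NCIH522 and 2.56% in PC9, and 23.0% in EBC1, 19.9% in LK2, 15.5% in NCIH226, 11.4% in NCIH520, 15.8% in SKMES1 and 18.0% in SW900. ABI1 rose across the lines by 0.27 ± 0.23 (SD, n = 10; limma adjusted p = 0.0256), above 0 in 9 of 10 lines, beside 9.5% of the 9339 genes that passed that test upward. This call was lost when EBC1, NCIH1975, NCIH226, SKMES1 or SW900 was left out (limma adjusted p of 0.0525 to 0.0584). A difference of this rise between the groups did not pass the test: the LUAD mean was 0.30 ± 0.34 (SD, n = 4), the LUSC mean 0.24 ± 0.16 (SD, n = 6), and the difference 0.06 (limma SE 0.16; limma adjusted p = 0.999). With fold changes scaled to a common SD that difference was −0.025, and it was also below 0 with inverse variance weights, so it has no settled direction.

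**Figure D2:**
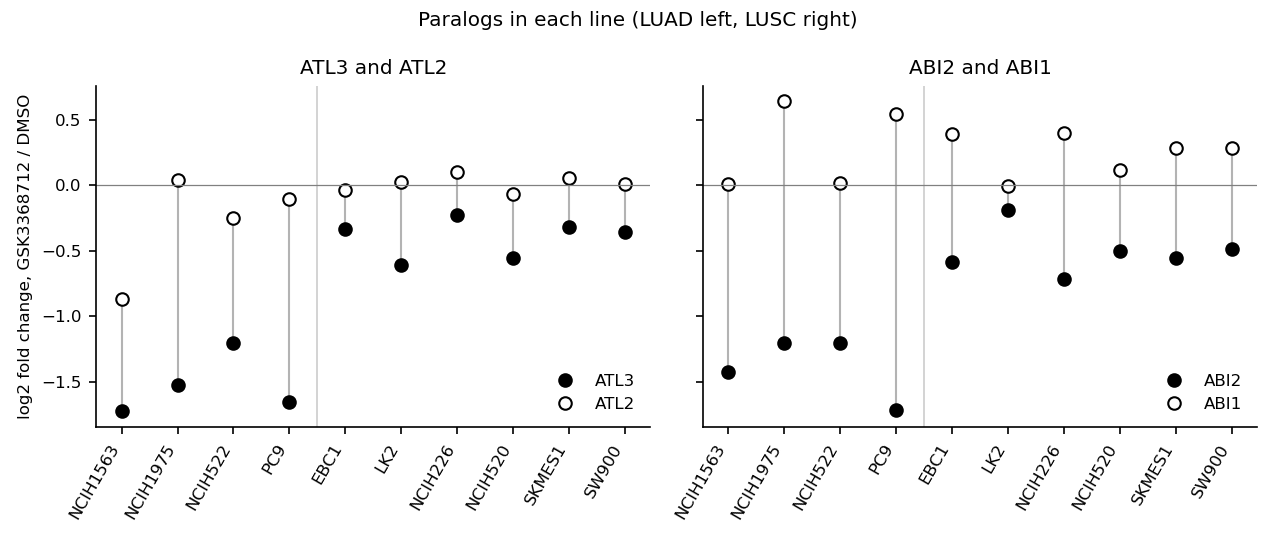
Log2 fold change of each of the 4 named genes that form paralog pairs, by line, with the LUAD lines left of the grey line and the LUSC lines right of it. Filled points are ATL3 and ABI2, which were chosen by their fold changes, and open points are ATL2 and ABI1, which were not. The filled point is the lower of the pair in each of the 10 lines, and ABI2 minus ABI1 ranges from −2.25 in PC9 to −0.19 in LK2.

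ABI2 lay below ABI1 in each of the 10 lines, an order that the choice of ABI2 by its fold changes favours. The fold change of ABI2 minus that of ABI1 was −1.43 in NCIH1563, −1.84 in NCIH1975, −1.22 in NCIH522 and −2.25 in PC9. In the LUSC lines it was −0.98 in EBC1, −0.19 in LK2, −1.12 in NCIH226, −0.62 in NCIH520, −0.84 in SKMES1 and −0.77 in SW900. LK2 was the line where neither gene moved far, with ABI2 at −0.19 and ABI1 at −0.002 in the authors' deposited table.

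Shared sequence between the relatives was small. Of the 7653 distinct words of 31 bases in the GENCODE transcripts of ATL3, 6 (0.0784%) also occur in ATL2, and of the 23779 words of ABI2, 0 occur in ABI1. With any other gene, ATL3 shares 4.06% of its words, ATL2 3.17%, ABI2 2.39%, ABI1 0.476% and CLIP4 0. ZNF271P shares 2.79%, most with AL139415.1. On the opposite strand RAPH1 overlaps ABI2 and PDSS1 overlaps ABI1, and whether counting used strand is not given in the sources used here, so reads of such a pair may not be told apart.

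Set against all 9339 genes, the 4 genes lay in the lower tail of the difference between LUAD and LUSC lines. ATL3 held place 11 from the lowest, ZNF271P place 14, CLIP4 place 22 and ABI2 place 28, whereas ATL2 held place 534 and ABI1 place 5143. The median difference of all genes was 0.035, and single genes ran from −2.48 to 2.10. In 67 genes (0.717%) every LUAD line lay below every LUSC line, the 4 genes among them, and in 78 genes (0.835%) every LUAD line lay above. By limma's test of LUAD minus LUSC, 1 gene (0.0107%) passed an adjusted p of 0.05 and 511 an unadjusted p under 0.05. The gene that passed is ATL3, whose fold changes in this contrast chose it, so the call lends it no support. No gene passed with fold changes scaled to a common SD, with inverse variance weights, with genes of fewer lines included, or without EBC1, LK2, NCIH1975, NCIH226, NCIH520, PC9 or SW900.

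**Figure D3:**
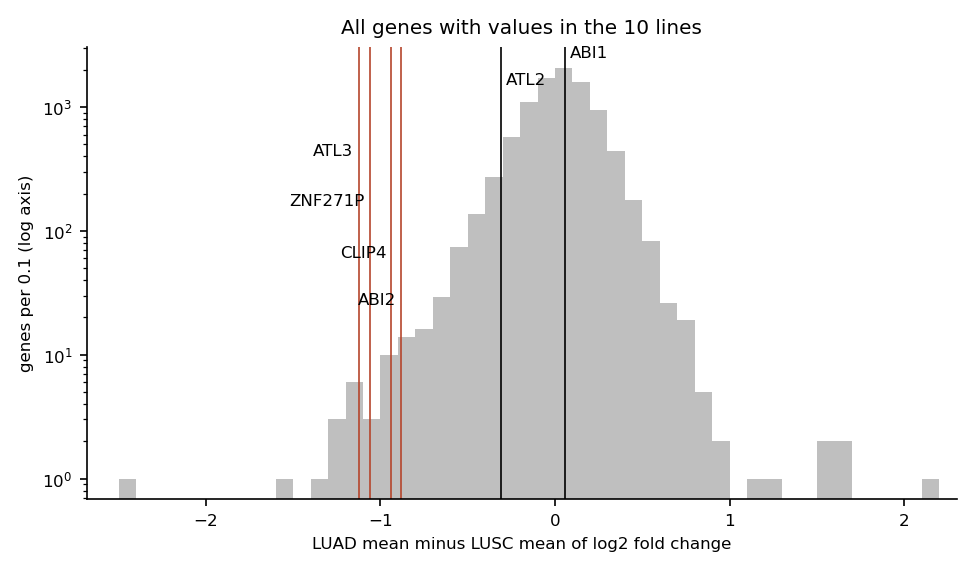
Histogram of the difference between the LUAD mean and the LUSC mean of the log2 fold change for 9339 genes, with a log axis for the number of genes. Red lines mark the 4 genes chosen for falling more in LUAD lines, between −1.12 and −0.88, and black lines mark ATL2 at −0.31 and ABI1 at 0.06.

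Depth and the levels of genes by transcript length differed between the groups of lines and were measured beside these values. The standard errors differed as well, with medians of 0.216 to 0.342 in LUAD lines and 0.108 to 0.13 in LUSC lines. An effect of the LUAD or LUSC label therefore cannot be told apart from such traits of the libraries. The mean normalized counts summed to 91375623 to 100671496 per LUAD line and 57647556 to 108557964 per LUSC line, and LK2 was the only LUSC line above 90000000. Against LK2 alone, the LUAD lines differed by −0.915 for ATL3, −1.20 for ABI2, −1.0 for ZNF271P and −0.92 for CLIP4. The genes were also split into 4 classes of like size by their longest transcript. Genes of class 4, with the longest transcripts, which holds ATL3, ABI2 and ZNF271P, had a median level 0.79 lower on the log2 scale in LUAD lines than in LUSC lines, and class 1, the shortest, a median 0.32 higher. Their fold changes differed far less between the groups, with median differences of 0.013 in class 4 and 0.045 in class 1, but single LUAD lines ran opposite ways. In class 4 the median fold change was −0.28 in NCIH1563, 0.14 in NCIH1975, 0.005 in NCIH522 and 0.17 in PC9. Over the LUSC lines it ran from −0.022 in SW900 to 0.025 in NCIH520. When each line was centred on the median of the gene's length class, the differences were −1.13 for ATL3, −0.89 for ABI2, −1.07 for ZNF271P and −0.96 for CLIP4.

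NCIH1563 behaved unlike the other LUAD lines in several of the 6 genes. It had the largest falls of CLIP4 (−1.08) and ATL2 (−0.87) and the smallest fall of ZNF271P (−0.27) in the authors' deposited table. Its fall of ATL3 (−1.72) was close to that of PC9 (−1.65). Its fold changes were also the most spread, with an SD over all listed genes of 0.92, against 0.47 to 0.69 in the other LUAD lines and 0.44 to 0.72 in the LUSC lines. In NCIH1563 the median log2 fold change was −0.28 for length class 4 and 0.28 for class 1, while PC9 had 0.17 for class 4 and −0.15 for class 1. ABI2 stood at −1.43 in NCIH1563 and −1.71 in PC9 in the authors' deposited table. Whether transcript length bears on the falls of ATL3 and ABI2 was not tested. Without NCIH1563 the difference between LUAD and LUSC lines was −1.27 for ZNF271P and −0.775 for CLIP4.

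The levels of the genes, averaged over the treated and untreated libraries of a line, varied more between lines than the fold changes did. They are given in CPM, scaled as above, and since the lines may have been normalized separately they were not tested. ATL3 ranged from 36.0 in NCIH1563 to 56.0 in NCIH522 over the LUAD lines and from 18.9 in LK2 to 172 in EBC1 over the LUSC lines. ABI2 ranged from 10.8 in PC9 to 96.2 in NCIH522 over the LUAD lines and from 41.9 in EBC1 to 127 in NCIH520 over the LUSC lines. LK2 had the lowest ATL3 level of all lines and a larger ATL3 fall than any other LUSC line. PC9 likewise had the lowest ABI2 level and the largest ABI2 fall of all lines. Since the level averages both arms, a larger fall itself lowers it.

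CLIP4 ranged from 9.60 to 25.8 CPM in LUAD lines and from 6.48 in LK2 to 116 in EBC1 over the LUSC lines. ZNF271P, a gene of low level, ranged from 2.91 in PC9 to 16.9 in NCIH522 over the LUAD lines and from 13.0 in SW900 to 37.9 in EBC1 over the LUSC lines. The paralogs were the 2 genes of the 6 whose levels did not overlap: ATL2 lay at 11.4 to 31.2 in LUAD lines and 43.7 to 88.8 in LUSC lines, and ABI1 at 14.7 to 25.04 in LUAD lines and 40.0 to 141 in LUSC lines. Of all 9339 genes, 16.4% had a lower level in every LUAD line than in every LUSC line and 4.5% a higher one. ATL2 and ABI1 are in length classes 2 and 3, where the median level differed by 0.094 and −0.30 on the log2 scale.

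**Figure D4:**
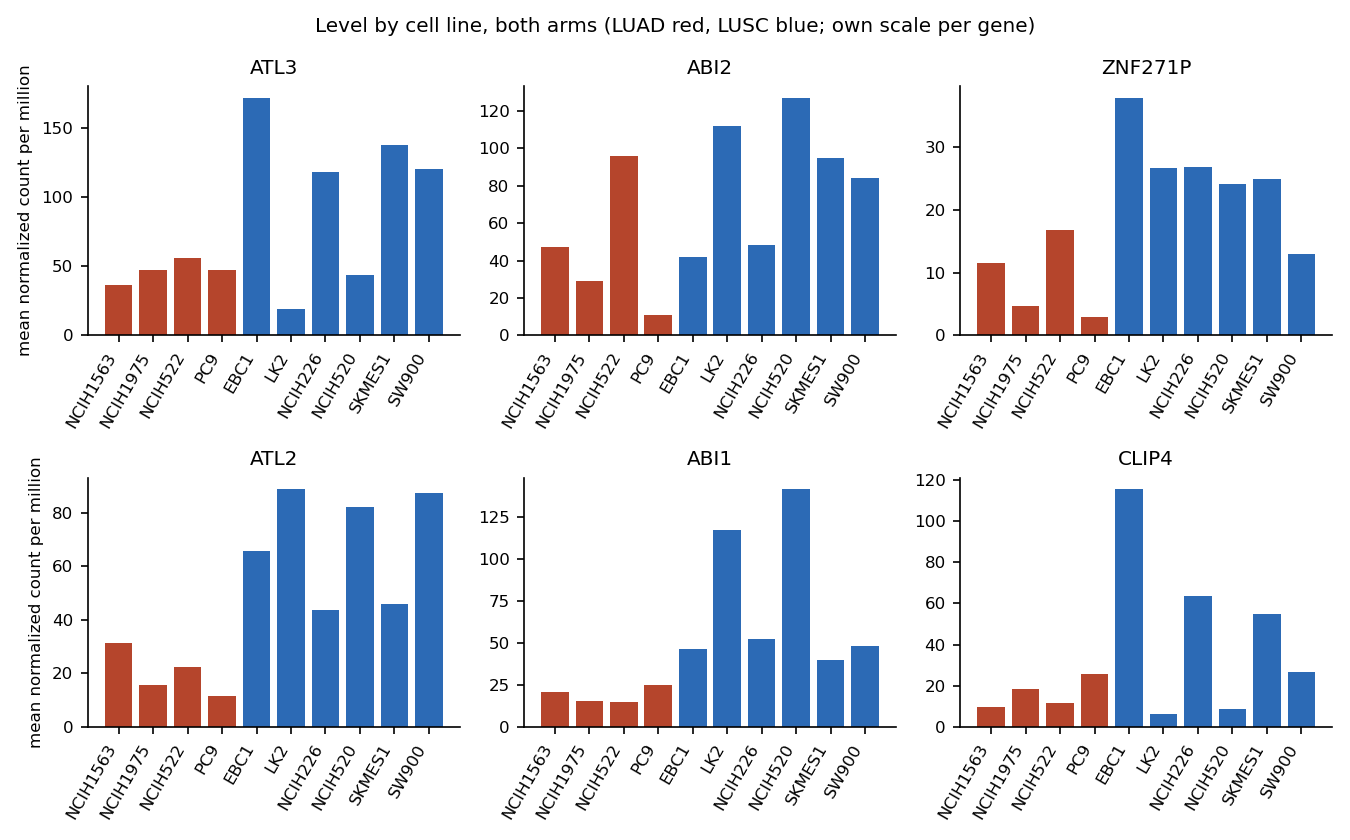
Level of the 6 genes in each line in CPM, the authors' mean normalized counts scaled to the sum of the line, averaged over both arms, with the 4 LUAD lines in red on the left and the 6 LUSC lines in blue on the right, on a scale of its own for each gene. ATL2 and ABI1 are lower in every LUAD line than in any LUSC line, while ATL3, ABI2, ZNF271P and CLIP4 overlap between the groups.

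The genes close to the 6 on the chromosome were examined for the same contrast. Within 250 kb of them, 32 other genes had values and 17 had values in all 10 lines. Among these 17 the difference between LUAD and LUSC lines ran from −0.18 to 0.35. By limma, 0 of the 17 passed the adjusted p and 1, CYP20A1, had an unadjusted p under 0.05. Of all 9339 genes, 0.0107% and 5.47% did so. The remaining neighbours had values in fewer lines and were not tested. Among them, NBEAL1 near ABI2 stood at −0.90 in its 1 LUAD line and 0.32 ± 0.41 in LUSC lines (SD, n = 6). CYP1B1-AS1 near ATL2 stood at −0.99 in its 1 LUAD line and 0.03 ± 0.08 in LUSC lines (SD, n = 3). RAPH1, which overlaps ABI2, had values in 9 lines. It stood at −0.01 ± 0.83 in LUAD lines (SD, n = 3) and 0.48 ± 0.17 in LUSC lines (SD, n = 6). RTN3, a reticulon that curves endoplasmic reticulum membranes, lies 9525 bases from ATL3 on the other strand and stood at 0.21 ± 0.06 in LUAD lines (SD, n = 4) and 0.19 ± 0.09 in LUSC lines (SD, n = 6). PLA2G16, a phospholipase gene 7204 bases from ATL3, stood at 0.32 ± 0.16 in LUAD lines and 0.50 ± 0.54 in LUSC lines. ZSCAN30, which lies 37 bases from ZNF271P on the other strand, stood at 0.76 ± 0.55 in LUAD lines and 0.47 ± 0.28 in LUSC lines. CYP20A1, a cytochrome P450 gene 22608 bases from ABI2, was the 1 of these 17 neighbours whose groups did not overlap (limma adjusted p = 0.842). Its values were higher in LUAD lines, at 0.48 ± 0.19, than in LUSC lines, at 0.13 ± 0.14. Over all 9339 genes, every LUAD line lay above every LUSC line in 0.835% and below in 0.717%.

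**Figure D5:**
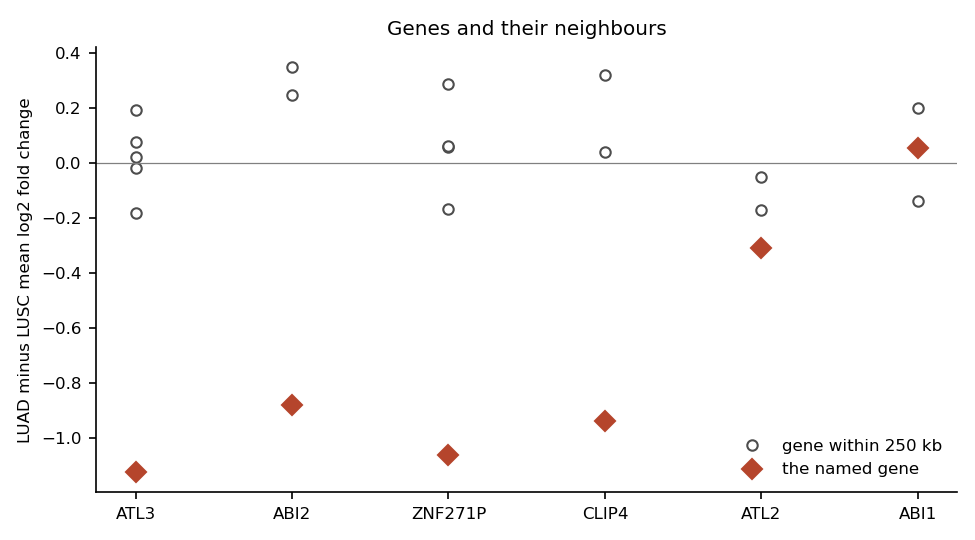
Difference between the LUAD mean and the LUSC mean of the log2 fold change for the 6 genes (red diamonds) and for the 17 genes within 250 kb that have values in all 10 lines (open circles), with 1 column per locus. The open circles stay between −0.18 and 0.35 while ATL3, ABI2, ZNF271P and CLIP4 lie between −1.12 and −0.88.

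Partners of the proteins were examined in 5 lists of 65 genes, of which 50 had values in all 10 lines. By limma, 0 of the 50 differed between LUAD and LUSC lines at an adjusted p of 0.05 and 3, namely CKAP4, REEP3 and RTN4, did at an unadjusted p under 0.05, beside 0.0107% and 5.47% of all genes. Across the 10 lines together, 4 of the 50 fell and 1 rose, beside 12.1% and 9.5% of all genes (34.6% changed in either direction at an unadjusted p under 0.05).

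Of 13 endoplasmic reticulum shaping genes with values in all 10 lines, 3 fell and 1 rose across the lines. LNPK, which stabilises the branch points that atlastins make, fell by 0.35 ± 0.28 (SD, n = 10; limma adjusted p = 0.0118), and REEP3, a membrane-shaping protein, by 0.35 ± 0.32 (limma adjusted p = 0.0195). RAB10, a small GTPase of endoplasmic reticulum dynamics, fell by 0.22 ± 0.18 (limma adjusted p = 0.0399), and RTN3 rose by 0.19 ± 0.08, above 0 in 10 of 10 lines (limma adjusted p = 0.0212). REEP3 stood at −0.63 ± 0.29 in LUAD lines (SD, n = 4) and −0.17 ± 0.19 in LUSC lines (SD, n = 6), a difference that did not pass (limma adjusted p = 0.758). CKAP4, a sheet-shaping protein, and RTN4, a reticulon, ran the other way. CKAP4 stood at 0.18 ± 0.27 in LUAD lines and −0.35 ± 0.18 in LUSC lines (limma adjusted p = 0.708), and RTN4 at 0.22 ± 0.23 in LUAD lines and −0.14 ± 0.20 in LUSC lines (limma adjusted p = 0.885). ATL1, the remaining atlastin, had values in 7 lines, with a mean of −0.18 ± 0.63 in LUAD lines and 0.30 ± 0.19 in LUSC lines. The median difference of the list was 0.023, beside 0.035 for all genes.

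Of 6 receptors of endoplasmic reticulum autophagy with values in all 10 lines, 0 passed either test, and their median difference was −0.16. TEX264 was the 1 gene of the 50 whose groups did not overlap (limma adjusted p = 0.965). It stood at −0.08 ± 0.05 in LUAD lines (SD, n = 4) and 0.12 ± 0.11 in LUSC lines (SD, n = 6). Over all 9339 genes, every LUAD line lay below every LUSC line in 0.717% and above in 0.835%. Nothing is read from 1 gene of 50. Of 10 genes of the WAVE complex and its Abl partners with values in all 10 lines, 0 passed either test, with a median difference of 0.059. ABI3, the remaining Abl interactor, had values in none of the lines. Of 10 Arp2/3 genes, 1 passed, ACTR3B, which stood at −0.32 ± 0.14 (SD, n = 10; limma adjusted p = 0.00296) and below 0 in 10 of 10 lines, and the median difference was 0.093. Of 11 genes of microtubule plus ends with values in all 10 lines, 0 passed either test, with a median difference of 0.025. In the family of CLIP4, CLIP1 stood at −0.42 ± 0.70 in LUAD lines and −0.04 ± 0.11 in LUSC lines, CLIP2 had values in 9 lines, and CLIP3 had values in 6 lines, 1 of them LUAD.

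The genes whose fold changes ran most like those of the 4 genes over the 10 lines are given as a description. Closest to ATL3 was VMA21, an assembly factor of the vacuolar proton pump (Pearson r = 0.96), with −0.80 ± 0.09 in LUAD lines (SD, n = 4) and −0.20 ± 0.16 in LUSC lines (SD, n = 6). STAM2, an endosomal sorting protein, followed at r = 0.933 and SFT2D2 at r = 0.891. Closest to ABI2 were HUS1, a subunit of the DNA damage checkpoint clamp (r = 0.908), MPV17, a mitochondrial inner membrane protein (r = 0.904), and COX6C, a subunit of cytochrome c oxidase (r = 0.899). HUS1 stood at −0.68 ± 0.18 in LUAD lines and −0.24 ± 0.19 in LUSC lines.

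Closest to ZNF271P was ZNF720, another zinc finger gene (r = 0.949), at −0.73 ± 0.37 in LUAD lines (SD, n = 4) and −0.12 ± 0.06 in LUSC lines (SD, n = 6). The pseudogene CA5BP1 (r = 0.943) and SPPL3, an intramembrane protease (r = 0.941), followed. Closest to CLIP4 were ADD3, an adducin of the membrane skeleton (r = 0.945), TATDN3 (r = 0.938) and MOB1A, an adaptor of Hippo signalling (r = 0.932). MOB1A stood at −0.54 ± 0.18 in LUAD lines and −0.09 ± 0.08 in LUSC lines. Each r is over 10 points that share the libraries of their line, and it holds both the split between the groups and the spread within them.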

How the data were processed

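RNA-seq libraries were quantified with Salmon 0.12.0 on GRCh38, and DESeq2 compared the arms, per the submitters' processing notes, and per the labels genes at an FPKM of 1 or below were filtered out of each comparison. The authors' deposited table gives per line a log2 fold change with its standard error, a test score (the fold change over its error), an adjusted p-value, a 0 or 1 mark and the mean normalized count, a signal averaged over both arms. Values per library were not analysed here, and depth is known only through the summed signal. The row labels also carry 2000 and D5, whose meaning is not spelled out.

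From these, limma 3.58.1 in R 4.3.3 tested LUAD minus LUSC and the mean over lines, each line entering as 1 fold change, with p-values adjusted (Benjamini-Hochberg, threshold 0.05) over 9339 genes. Intervals are the value ± 1.96 standard errors. Figures used matplotlib 3.10.9. Named are the 6 genes, list members past a test (up to 4 per list) and close relatives, neighbours within 250 kb, and the 3 genes with the highest Pearson r for each of the 4 chosen genes. TEX264, CKAP4, RTN4 and the neighbours described were picked after their values were seen. The members and lists were chosen with earlier results of these data known. Alternatives were scaling, centring, variance models, weights, gene filters, thresholds and leaving out each line; limits on depth and centring by transcript length were chosen after seeing the data.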

Additional observations from a re-analysis of the deposited data

Results flagged for a closer look

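CLIP4 in NCIH1563 stood apart from the other LUAD lines. Its log2 fold change was −1.084 there, against −0.452 to −0.424 in PC9, NCIH1975 and NCIH522, so its gap to the nearest line took up most of the range of the group. Of 24 groups of values checked in this way, fold changes and levels of 6 genes in each group of lines, 1 stood out, and chance gives about 1 in 20.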

How the results depend on the processing

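No paired analysis was possible because the table holds comparisons per line and no values per library. The groups of ATL3, ABI2, ZNF271P and CLIP4 do not overlap, so leaving out or weighting lines cannot turn the sign of their differences, and only the sizes are informative. Leaving out 1 line gave −1.23 to −1.06 for ATL3, −0.94 to −0.77 for ABI2, −1.27 to −0.91 for ZNF271P and −0.995 to −0.775 for CLIP4. With fold changes scaled to a common SD the difference was −0.76 for ATL3 and −0.57 for ABI2, and in the lines above 90000000 summed normalized counts it was −0.915 for ATL3 and −1.20 for ABI2. The count of genes that differ between LUAD and LUSC lines, 1 by limma, was 0 with scaling (673 unadjusted), 0 with inverse variance weights (311) and 0 among 11303 genes with values in at least 3 LUAD and 4 LUSC lines (662). Leaving out 1 line gave counts of 0 to 14, the highest without NCIH1563 and 0 without EBC1, LK2, NCIH1975, NCIH226, NCIH520, PC9 or SW900, with 375 to 1641 unadjusted. The difference of ABI1 turned negative with scaling (−0.025), with inverse variance weights (−0.0026), without NCIH1975 (−0.056) and without PC9 (−0.023), with a range of −0.056 to 0.15 when 1 line was left out. That of ATL2 was −0.42 to −0.12, the smallest size without NCIH1563. The count of genes changed across lines, 2021, was 3562 with inverse variance weights and 1268 among the top 75% of genes by expression, where fewer genes were tested, and 1563 to 2682 with 1 line left out. The mean of ABI1 was 0.23 to 0.30 and that of ATL2 −0.13 to −0.025 with 1 line left out. The cause of these shifts was not tested. Depth per library was not analysed here, and a group of 4 against 6 lines with standard errors up to 0.471 limits the test between groups.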
